A study of Mus musculus with 19 samples.

Results

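The platelet-derived growth factor (PDGF) genes were followed across whole mouse kidneys: the ligand genes Pdgfa, Pdgfb, Pdgfc and Pdgfd and the receptor genes Pdgfra and Pdgfrb. They were taken by gene symbol, 6 of the 55536 genes in the deposited count table, and all 6 had enough reads to be tested. RNA was sequenced in 19 libraries. The series design gives 8 libraries of obstructed kidneys from mice given zalfermin, 7 of obstructed kidneys from mice given vehicle, and 4 of healthy kidneys given vehicle. The design abbreviates obstruction as UUO, which usually means that the ureter of 1 kidney is tied off so that the kidney scars. Zalfermin is, by the series title, an FGF21 analogue with a long action. The labels differ in wording: they give the 15 obstructed libraries the condition MASH, name the drug arm by a code, and call the healthy libraries untreated. The sources used here do not give strain, age, dose, duration or time of collection, nor whether each library came from its own animal. The p-values therefore measure the spread between these libraries, which may be technical.

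PDGFs are secreted dimers that signal through a pair of receptor tyrosine kinases, the alpha receptor encoded by Pdgfra and the beta receptor encoded by Pdgfrb. PDGF-A and PDGF-B are processed inside the cell, while PDGF-C and PDGF-D are secreted with an inhibitory CUB domain that extracellular proteases remove. The alpha receptor binds PDGF-A, PDGF-B and PDGF-C, and the beta receptor binds PDGF-B and PDGF-D. In kidney, PDGF-B from endothelium acting on the beta receptor is known to be needed for mesangial cells, and both receptors are found on interstitial fibroblasts and pericytes, cells that take part in scarring.

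The sequence just before the annotated start could be shown for Pdgfra, Pdgfd and Pdgfc, a receptor and both CUB-domain ligands, whose RNA behaved differently in these kidneys. The table of RefSeq promoter windows on GRCm38.p6 held 4 of the 6 genes, in 5 windows; Pdgfb and Pdgfrb were not in it, and both Pdgfa windows overlapped annotated exons and are not shown. The windows are 250 bases long, on the plus strand, at chr5:75152001-75152250 for Pdgfra, chr9:6168236-6168485 for Pdgfd and chr3:81036166-81036415 for Pdgfc.
Pdgfra: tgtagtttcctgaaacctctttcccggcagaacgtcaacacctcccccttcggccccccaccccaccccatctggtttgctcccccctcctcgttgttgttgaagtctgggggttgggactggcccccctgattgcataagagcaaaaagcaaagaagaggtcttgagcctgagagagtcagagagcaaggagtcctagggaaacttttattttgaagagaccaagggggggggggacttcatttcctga
Pdgfd: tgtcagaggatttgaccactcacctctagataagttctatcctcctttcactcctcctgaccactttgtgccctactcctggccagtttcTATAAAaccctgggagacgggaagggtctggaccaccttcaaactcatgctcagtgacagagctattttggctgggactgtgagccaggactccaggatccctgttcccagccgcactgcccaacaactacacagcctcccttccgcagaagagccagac
Pdgfc: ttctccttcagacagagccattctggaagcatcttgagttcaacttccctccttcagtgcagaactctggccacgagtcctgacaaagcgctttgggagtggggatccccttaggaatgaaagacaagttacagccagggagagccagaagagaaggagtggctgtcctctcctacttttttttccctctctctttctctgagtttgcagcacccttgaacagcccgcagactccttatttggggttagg
Capitals mark the only match in these 3 windows to 4 motifs searched on both strands: TGANTCA for AP-1, GGGCGG for SP1, TATAAA for the TATA box and TTCCNGGAA for STAT factors. The match was TATAAA in Pdgfd, 160 to 155 bases before the RefSeq start, and 12.4% of the 32851 promoter windows in the table held TATAAA. The Pdgfa windows held GGGCGG 1 and 2 times, a motif found in 32.7% of all windows. AP-1 and STAT letters, present in 6.75% and 0.913% of all windows, were in none of the 5. Both Pdgfa windows were rich in G and C (66.4% and 72.4%), against 54.4% for Pdgfra, 53.6% for Pdgfd, 50.8% for Pdgfc and a median of 52.4% over all windows. The annotations differ on the start: GENCODE M21 begins Pdgfd 99 bases and Pdgfra 42 bases past the end of these windows, and Pdgfc right after it. The letters describe the windows and were tied to no change in RNA.

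Libraries held 12209122 to 14844103 counts. Levels are given as CPM, counts scaled to a common library total after TMM normalization, and 16026 genes were tested with edgeR's quasi-likelihood test. A gene is said to be called where its adjusted p (Benjamini-Hochberg over all tested genes) was under 0.05. Vehicle replicate 6 stood apart, with 19788 genes detected, against 21333 to 22216 in the other obstructed libraries, and with 1.10% of its counts from mitochondrially encoded genes. In bulk tissue, more RNA per cell and more cells of a type cannot be told apart.

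The beta receptor gene was the higher of the receptors per length and was raised in all obstructed libraries. Pdgfrb (ENSMUSG00000024620, GRCm38 chromosome 18, 61045150 to 61085061, plus strand) ranged from 134.5 to 195 CPM in zalfermin libraries, with a median of 156 CPM, and from 175 to 242 CPM in vehicle libraries, with a median of 205 CPM. The healthy libraries had 53.4, 46.0, 42.9 and 34.9 CPM. All 15 obstructed libraries lay above all 4 healthy ones, while zalfermin and vehicle libraries overlapped. Pdgfrb rose 4.65-fold in vehicle over healthy kidneys (95% interval 3.84 to 5.63, adjusted p = 3.12e-12). It rose 3.65-fold in zalfermin over healthy kidneys (3.04 to 4.401, adjusted p = 3.38e-11).

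Pdgfra, which encodes the alpha receptor (ENSMUSG00000029231, GRCm38 chromosome 5, 75152292 to 75198215, plus strand), varied more within each group. It ranged from 102 to 161 CPM in zalfermin libraries (median 117) and from 92.1 to 191 CPM in vehicle libraries (median 157). In healthy libraries it was 50.8, 27.6, 24.5 and 19.7 CPM. Here too the obstructed libraries all lay above the healthy ones, and zalfermin and vehicle libraries overlapped widely. Healthy replicate 1 was the highest of its group. The coefficient of variation of Pdgfra was 20.3% in zalfermin, 25.3% in vehicle and 45.0% in healthy libraries, against 14.6%, 10.7% and 17.3% for Pdgfrb in the same groups. Pdgfra rose 4.68-fold in vehicle over healthy kidneys (3.31 to 6.62, adjusted p = 3.68e-08) and 4.09-fold in zalfermin over healthy kidneys (2.91 to 5.74, adjusted p = 1.14e-07).

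Among the ligands, Pdgfb changed most with obstruction. Pdgfb (ENSMUSG00000000489, chromosome 15, 79995874 to 80014977, minus strand) ranged from 107 to 144 CPM in zalfermin libraries (median 124) and from 123 to 185 CPM in vehicle libraries (median 158). The healthy libraries had 27.8, 33.4, 29.0 and 24.3 CPM. The lowest obstructed library was more than 3 times the highest healthy one. Pdgfb rose 5.43-fold in vehicle over healthy kidneys (4.48 to 6.57, adjusted p = 8.31e-13) and 4.44-fold in zalfermin over healthy kidneys (3.68 to 5.35, adjusted p = 4.73e-12).

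Pdgfa, the other ligand gene without a CUB domain, rose less. Pdgfa (ENSMUSG00000025856, chromosome 5, 138976014 to 138997370, minus strand) ranged from 38.4 to 54.4 CPM in zalfermin libraries (median 47.2) and from 38.6 to 69.7 CPM in vehicle libraries (median 44.8). Healthy libraries had 25.8, 22.5, 21.1 and 17.6 CPM. No obstructed library reached down to the healthy range, and vehicle replicate 2 was well above the rest of its group. The rise was 2.20-fold in vehicle over healthy kidneys (1.78 to 2.72, adjusted p = 4.85e-07) and 2.12-fold in zalfermin over healthy kidneys (1.73 to 2.61, adjusted p = 7.79e-07). Exons of the antisense gene 6330403L08Rik overlap Pdgfa, and the strand setting of the counting is not given. That gene averaged 5.65 ± 1.03 CPM in zalfermin, 5.94 ± 0.992 CPM in vehicle and 5.19 ± 1.497 CPM in healthy libraries (SD, n = 8, 7 and 4), and was called in none of the 3 comparisons.

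The CUB-domain ligands parted. Pdgfd (ENSMUSG00000032006, chromosome 9, 6168584 to 6378850, plus strand) ranged from 32.3 to 45.9 CPM in zalfermin libraries (median 37.7) and from 24.1 to 50.2 CPM in vehicle libraries (median 44.6). Levels in healthy libraries were 28.6, 20.8, 21.8 and 26.3 CPM. Vehicle replicate 6, the 24.1 CPM library, was the only obstructed one inside the healthy range. Pdgfd rose 1.73-fold in vehicle over healthy kidneys (1.39 to 2.16, adjusted p = 1.02e-04) and 1.57-fold in zalfermin over healthy kidneys (1.26 to 1.95, adjusted p = 6.76e-04). Without vehicle replicate 6 the log2 fold change in vehicle over healthy kidneys was 0.84, against 0.79 with it.

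Pdgfc was the member whose RNA was not called in any comparison. Pdgfc (ENSMUSG00000028019, chromosome 3, 81036416 to 81214040, plus strand) ranged from 24.0 to 30.6 CPM in zalfermin libraries (median 27.3) and from 16.6 to 26.6 CPM in vehicle libraries (median 25.1). Healthy libraries had 27.7, 27.7, 26.9 and 22.7 CPM. All 3 groups overlapped. The log2 fold change was -0.16 in vehicle over healthy kidneys (95% interval -0.40 to 0.08, adjusted p = 0.223) and 0.06 in zalfermin over healthy kidneys (-0.18 to 0.29, adjusted p = 0.657). These intervals exclude the rises of the other 5 genes but not smaller changes.

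**Figure D1:**
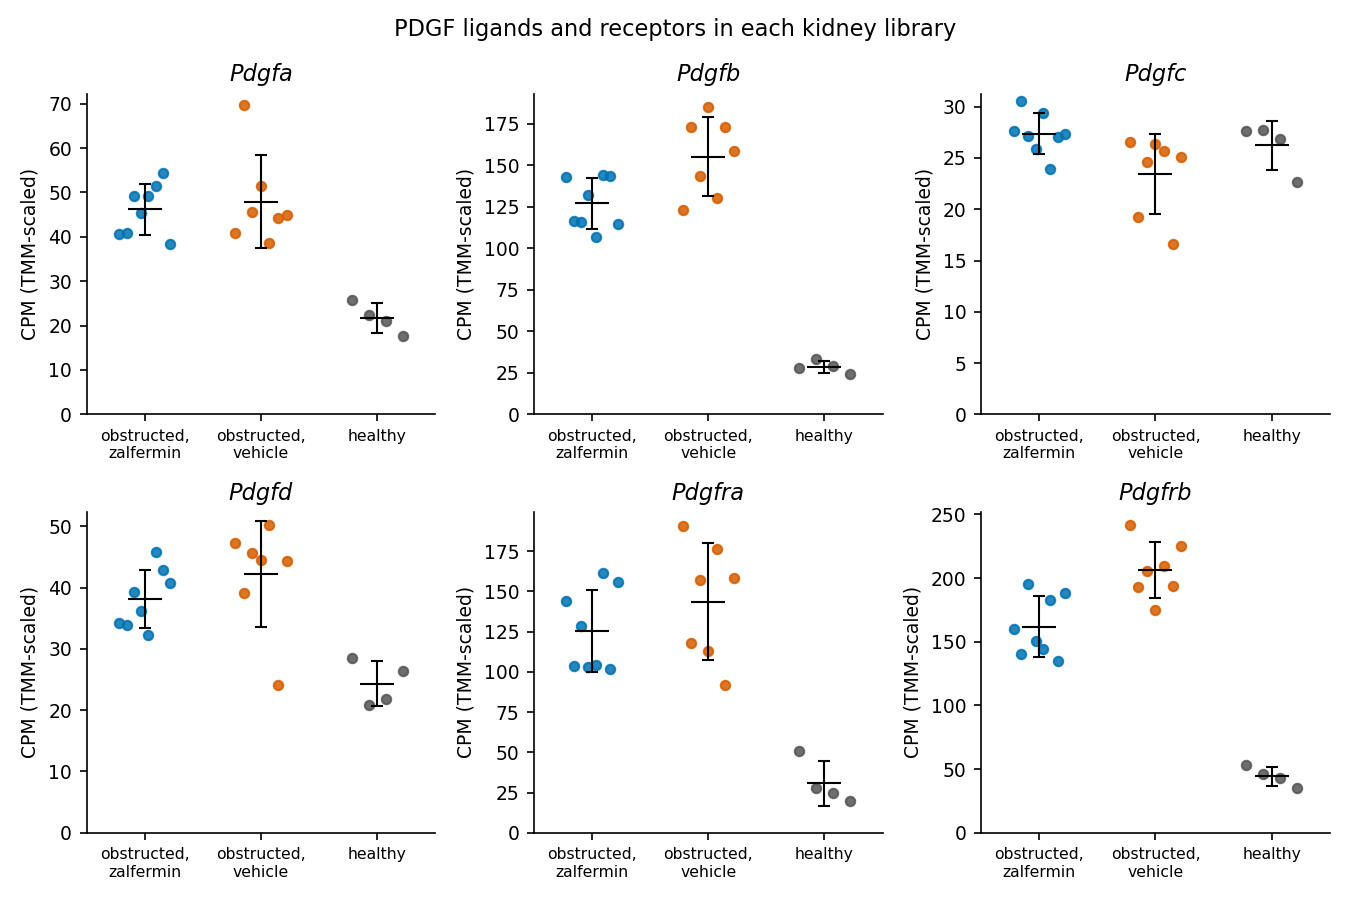
CPM (vertical axis, from 0) of the 6 PDGF genes in each library, grouped as obstructed with zalfermin, obstructed with vehicle and healthy. Points are libraries and black marks the mean and SD of 8, 7 and 4 libraries. Healthy libraries lie below all obstructed ones for Pdgfa, Pdgfb, Pdgfra and Pdgfrb, while Pdgfc overlaps in all groups. The share of all tested genes that separate in this way was not counted.

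Counted together, 5 of 6 genes were called higher and 0 lower in vehicle over healthy kidneys. In that comparison 36.2% of the 16026 tested genes were called higher and 28.6% lower, so a call by itself sets a gene little apart. The share of tested genes whose obstructed and healthy libraries do not overlap was not counted, so that separation does not set a member apart either. The size of the change places the members better. The log2 fold changes of Pdgfb (2.44), Pdgfra (2.23) and Pdgfrb (2.22) lay above those of 92.6%, 91.3% and 91.3% of tested genes. Those of Pdgfa (1.14) and Pdgfd (0.79) lay above 81.5% and 76.2%, and that of Pdgfc above 36.6%. In zalfermin over healthy kidneys 5 of 6 genes were again called higher and 0 lower, beside 37.3% of tested genes called higher and 27.0% lower. Both comparisons use the same 4 healthy libraries. The calls held in all 19 fits that each left out 1 library.

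In zalfermin over vehicle kidneys none of the 6 genes was called by edgeR. Over all genes 1.81% were called, 0.867% higher and 0.942% lower. Of the 290 called genes 47.9% were higher, a share that was 35.5% with upper-quartile scaling. At an unadjusted p under 0.05 there were 3 members: Pdgfrb and Pdgfb on the lower side and Pdgfc on the higher side. Of the 16026 tested genes 2479 had such a p, so it sets a gene less apart than an adjusted p does. All members had more reads than the test needs, and the intervals give the sizes that the design can exclude.

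Pdgfrb averaged 162 ± 23.6 CPM in zalfermin and 206 ± 22.2 CPM in vehicle kidneys (SD, n = 8 and 7), and 8 of 8 zalfermin libraries lay below the vehicle median. Its log2 fold change was -0.35 (95% interval -0.55 to -0.15, edgeR, adjusted p = 0.0688). Pdgfrb was the member nearest to the threshold, and its call depended on the fit. DESeq2 called Pdgfrb lower (adjusted p = 0.0215), the 1 member it called, beside 2.13% of tested genes. The voom fit with quality weights called Pdgfrb (adjusted p = 0.00494) and Pdgfd (adjusted p = 0.0342) lower, beside 4.03% of tested genes. Pdgfrb was also called by edgeR without vehicle replicate 4 (adjusted p = 0.0485), without vehicle replicate 6 (0.0391) or without zalfermin replicate 3 (0.0461), and its adjusted p ranged from 0.0391 to 0.150 over all libraries left out.

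Pdgfb averaged 127 ± 15.4 CPM in zalfermin and 155 ± 23.6 CPM in vehicle kidneys, again with 8 of 8 zalfermin libraries below the vehicle median. Its log2 fold change was -0.29 (-0.49 to -0.09, edgeR, adjusted p = 0.135), and no alternative called it. Pdgfc averaged 27.4 ± 2.02 CPM in zalfermin and 23.5 ± 3.93 CPM in vehicle kidneys, with 7 of 8 zalfermin libraries above the vehicle median (log2 fold change 0.22, 0.03 to 0.42, adjusted p = 0.261). The 2 vehicle libraries lowest in Pdgfc were replicates 6 and 2. Without replicate 6 the log2 fold change of Pdgfc was 0.14 (adjusted p = 0.372).

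For the remaining 3 genes the interval of the difference included 0. Pdgfra averaged 125 ± 25.4 CPM in zalfermin and 144 ± 36.4 CPM in vehicle kidneys (log2 fold change -0.20, -0.56 to 0.17, adjusted p = 0.631). Pdgfd averaged 38.2 ± 4.79 CPM in zalfermin and 42.2 ± 8.66 CPM in vehicle kidneys (-0.14, -0.39 to 0.11, adjusted p = 0.602). That value rests in part on vehicle replicate 6: without it the log2 fold change of Pdgfd was -0.26 (SE 0.09, edgeR adjusted p = 0.110), and that of Pdgfra was -0.29 (adjusted p = 0.392). Without vehicle replicate 1 that of Pdgfra was -0.11 (adjusted p = 0.792). Pdgfa averaged 46.2 ± 5.79 CPM in zalfermin and 47.9 ± 10.4 CPM in vehicle kidneys (-0.05, -0.29 to 0.18, adjusted p = 0.857). The widest of the 3 intervals, that of Pdgfra, reaches down to 0.678-fold.

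**Figure D2:**
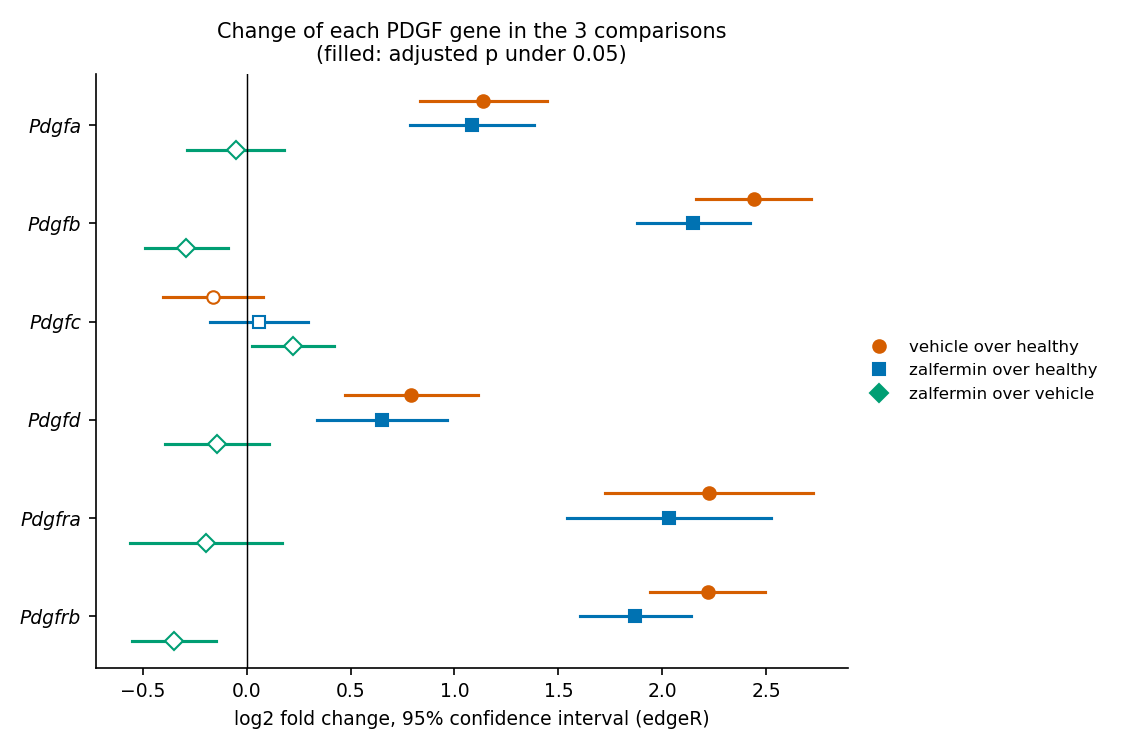
Log2 fold change (horizontal axis) with its 95% confidence interval for each PDGF gene in the 3 comparisons, from edgeR; filled symbols have an adjusted p under 0.05. The values over healthy are filled for 5 of 6 genes, and none over vehicle is filled, with Pdgfrb at -0.35 and Pdgfc at 0.22 at the ends.

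Levels of different genes were compared per kilobase of annotated exon, as CPM per kb. In obstructed kidneys Pdgfb was the leading ligand RNA, with 30.5 ± 3.70 CPM per kb in zalfermin and 37.3 ± 5.67 CPM per kb in vehicle libraries. Pdgfa (14.8 ± 1.86 and 15.4 ± 3.34 in the same groups) and Pdgfd (12.1 ± 1.52 and 13.4 ± 2.74) followed, and their ranges overlapped each other. Pdgfc was last, with 5.38 ± 0.396 and 4.61 ± 0.771. In healthy kidneys the ligands lay close together: Pdgfd had 7.72 ± 1.17, Pdgfa 6.97 ± 1.09, Pdgfb 6.87 ± 0.906 and Pdgfc 5.16 ± 0.471 CPM per kb. The first 3 overlapped, and dividing by the longest transcript put Pdgfa first (10.5) and Pdgfd (7.78) behind Pdgfb (9.71), so their order in healthy kidneys is not settled. The order in obstructed kidneys was the same with either length.

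Seen as a share of the 4 ligands' summed CPM per kb, Pdgfb made up 48.5% ± 2.92 in zalfermin, 52.7% ± 5.12 in vehicle and 25.8% ± 3.02 in healthy libraries. The share of Pdgfc was 8.65% ± 1.25 in zalfermin, 6.59% ± 1.37 in vehicle and 19.3% ± 1.03 in healthy libraries. The sum itself was 62.8 ± 5.38 CPM per kb in zalfermin, 70.7 ± 7.09 in vehicle and 26.7 ± 2.18 in healthy libraries. Of the receptors, Pdgfrb had 29.6 ± 4.31 CPM per kb in zalfermin, 37.6 ± 4.05 in vehicle and 8.08 ± 1.40 in healthy libraries. Pdgfra had 12.5 ± 2.54, 14.3 ± 3.63 and 3.06 ± 1.38 in the same groups, and its range lay below that of Pdgfrb in each. Divided by the longest transcript, the healthy ranges overlapped (Pdgfra up to 7.43, Pdgfrb from 6.43), and those of zalfermin and vehicle libraries did not.

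A ratio of 2 genes inside a library does not depend on how libraries are scaled, and shows unequal change of the pair, not which of them moved. Of 9 two-sided exact permutation tests on log2 ratios (3 ratios in 3 comparisons), 5 passed an adjusted p of 0.05. The log2 ratio of Pdgfb to Pdgfa ranged from 1.11 to 1.81 in zalfermin and from 1.31 to 1.97 in vehicle libraries, and was 0.11, 0.57, 0.46 and 0.46 in healthy libraries. It averaged 1.46 ± 0.21 in zalfermin, 1.71 ± 0.21 in vehicle and 0.40 ± 0.20 in healthy libraries (SD, n = 8, 7 and 4). Both obstructed groups exceeded healthy kidneys (exact permutation, adjusted p = 0.0182 each). Their unadjusted p was 0.00606 for vehicle and 0.00404 for zalfermin, the smallest that the exact permutation test can give with these libraries. The difference of zalfermin from vehicle, -0.25, had an exact p of 0.0457 and an adjusted p of 0.0685. That adjusted p was 0.0214 without vehicle replicate 2 and 0.0280 without zalfermin replicate 1.

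The CUB-domain ligands gave the ratio that differed in all 3 comparisons. The log2 ratio of Pdgfd to Pdgfc ranged from 0.14 to 0.94 in zalfermin and from 0.54 to 1.03 in vehicle libraries. In healthy libraries it was 0.05, -0.41, -0.31 and 0.21. It averaged 0.47 ± 0.27 in zalfermin, 0.83 ± 0.16 in vehicle and -0.12 ± 0.29 in healthy libraries (SD, n = 8, 7 and 4). Zalfermin libraries were thus intermediate, and they overlapped both other groups. The ratio was lower in zalfermin than in vehicle kidneys by a log2 difference of -0.36 (exact permutation, p = 0.00995, adjusted p = 0.0218), and its adjusted p stayed between 0.0136 and 0.0375 with each library left out. It was higher in vehicle than in healthy kidneys by 0.95 (exact permutation, adjusted p = 0.0182), again at the smallest p that the test can give. It was higher in zalfermin than in healthy kidneys by 0.59 (exact permutation, adjusted p = 0.0218). Without healthy replicate 1 (0.0545), 2 (0.0655) or 3 (0.0655) that adjusted p was not past the threshold. The difference was then 0.64, 0.49 and 0.53. Fewer healthy libraries also raise the smallest p that the test can give.

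The receptor ratio passed in no comparison. The log2 ratio of Pdgfrb to Pdgfra averaged 0.38 ± 0.17 in zalfermin, 0.56 ± 0.28 in vehicle and 0.61 ± 0.36 in healthy libraries. The healthy libraries had 0.07, 0.74, 0.81 and 0.82, with replicate 1 far below the other 3. In exact permutation tests the adjusted p was 0.177 for zalfermin over vehicle, 0.177 for zalfermin over healthy and 0.794 for vehicle over healthy. Without healthy replicate 1 the difference of zalfermin from healthy kidneys was -0.41 (exact permutation, adjusted p = 0.0300).

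**Figure D3:**
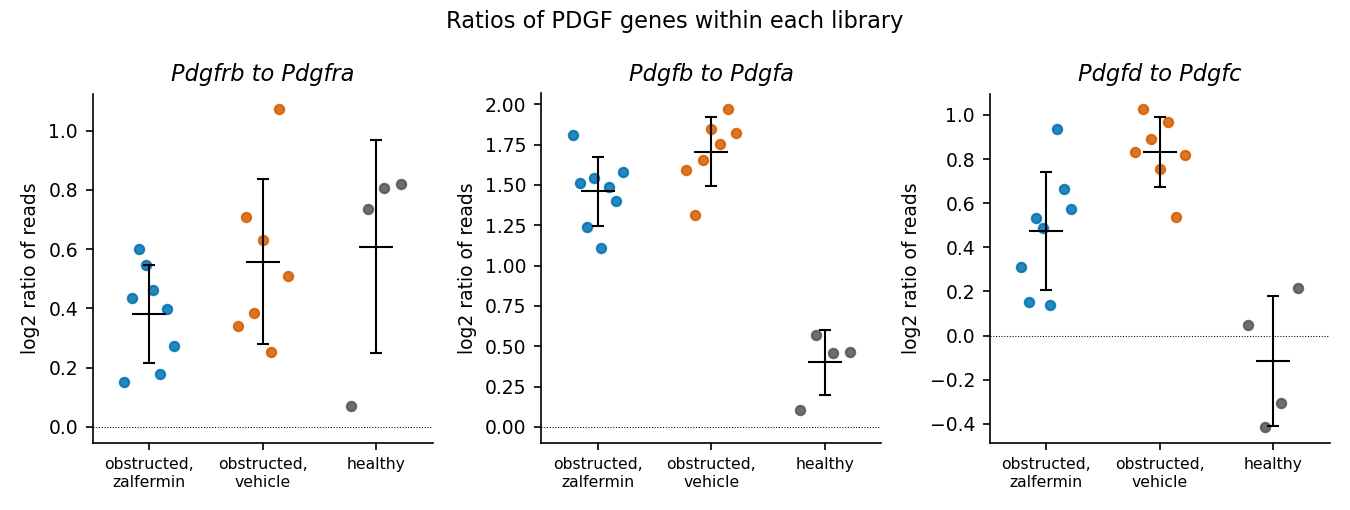
Log2 ratio of reads (vertical axis) within each library for Pdgfrb to Pdgfra, Pdgfb to Pdgfa and Pdgfd to Pdgfc, by group; points are libraries and black marks the mean and SD. The ratio of Pdgfd to Pdgfc averages 0.47 with zalfermin, 0.83 with vehicle and -0.12 in healthy kidneys, and the receptor ratios overlap in all groups.

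Members were also compared across the 15 obstructed libraries, on log2 CPM after the mean of each treatment group was subtracted. Of the 15 pairs, 2 had a Pearson r with an adjusted permutation p under 0.05, both with Pdgfra. The receptors Pdgfra and Pdgfrb had r = 0.78 (Spearman rho 0.78, adjusted permutation p = 0.0177 and 0.0150). That r was 0.81 without the 2 libraries farthest from the median of Pdgfra, vehicle replicates 1 and 6. It was 0.84 without vehicle replicate 6 (adjusted permutation p = 0.00975). Pdgfd and Pdgfra had r = 0.70 (rho 0.51, adjusted permutation p = 0.0278 and 0.191). It was 0.52 without vehicle replicate 6 and zalfermin replicate 5, and 0.56 without vehicle replicate 6 alone (adjusted permutation p = 0.144), so it rests on those libraries. Among the other 13 pairs Pdgfa and Pdgfb had a Pearson r of 0.52 (Spearman rho 0.56, adjusted permutation p = 0.251 and 0.191). Their r was 0.44 without the 2 libraries farthest from the median of Pdgfa. Pdgfc and Pdgfd had r = 0.59 (rho 0.28, adjusted permutation p = 0.251 and 0.444), and r was -0.66 without vehicle replicates 2 and 6. That relation rests on those libraries.

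The centred values of Pdgfra left a gap of 0.30 on the log2 scale between a lower run of 7 libraries and an upper run of 8. The lower run held 4 zalfermin and 3 vehicle libraries, and the upper run 4 of each. Pdgfrb was above its group mean in most libraries of the upper run and below it in all of the lower run. Within the runs the r of Pdgfra and Pdgfrb was -0.33 (n = 7) and 0.11 (n = 8). The runs were defined from the values of Pdgfra after these were seen, and a narrowed range lowers r by itself, so these values are a description only. For Pdgfra and Pdgfd, r was 0.81 in the lower run and 0.53 in the upper run, and vehicle replicate 6, lowest in both genes, lies in the lower run. No label accompanies the runs.

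**Figure D4:**
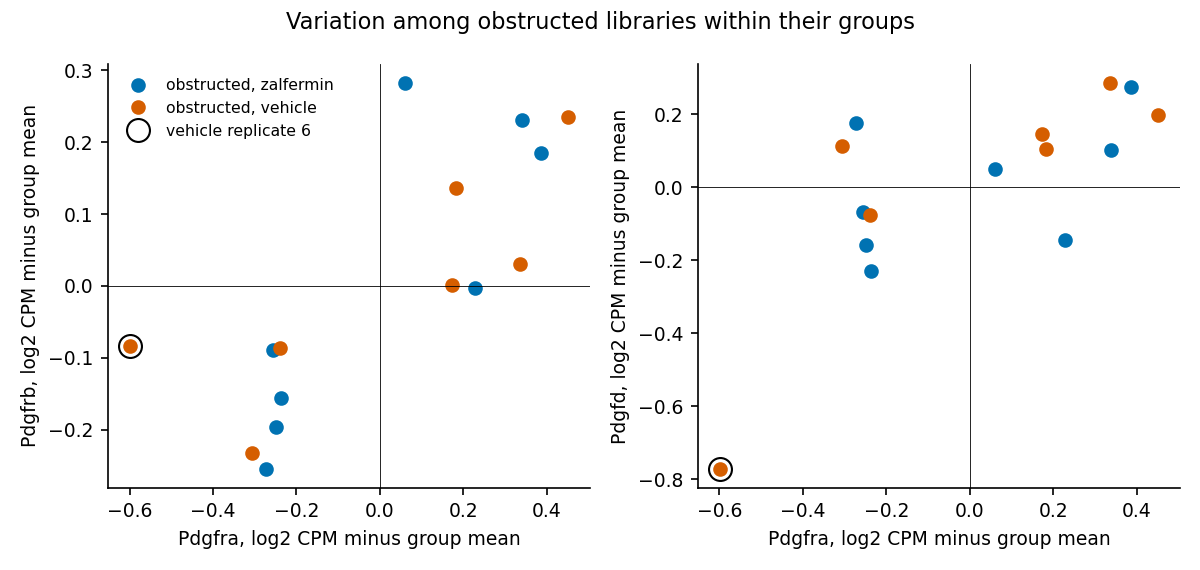
Log2 CPM minus the group mean of Pdgfrb (left) and Pdgfd (right) against that of Pdgfra, in 8 zalfermin and 7 vehicle libraries of obstructed kidneys; the circled point is vehicle replicate 6. A gap of 0.30 divides the Pdgfra values into 7 lower and 8 upper libraries, which hold both treatments.

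By the same centred values, the genes most like each member were ranked among 11670 genes (mean level 5 CPM or more), as a description over 15 libraries. Pdgfra was most like Cdh11, a cadherin gene of mesenchymal cells (r = 0.96), Rnf144a (0.94) and Robo1 (0.94), over libraries that form the runs above. Pdgfrb was most like Hip1 (0.89), Zfp608 (0.88) and Dtx4 (0.88). Cdh11 averaged 75.7 CPM in zalfermin, 128 CPM in vehicle and 10.5 CPM in healthy libraries. For the ligands, Pdgfb was most like Med26 (0.90), Bcl3 (0.85) and Ywhag (0.85), and Pdgfa was most like Tsc22d1 (0.91), Eif4a1 (0.91) and Aatf (0.90). Pdgfd was most like the leukocyte tetraspanin gene Cd53 (0.96), Tmem123 (0.95) and Pip4k2a (0.95). Pdgfc was most like Mtx3 (0.96), the mismatch repair gene Msh3 (0.94) and Ubr3 (0.93). Without vehicle replicate 6 these values were lower for Pdgfd and Pdgfc (0.85 for Cd53 and 0.86 for Msh3). Without the 2 libraries farthest from the member's median, r with Pdgfc was 0.88 for Mtx3, 0.61 for Msh3 and 0.62 for Ubr3. That r with Pdgfa was 0.77 for Tsc22d1, 0.76 for Eif4a1 and 0.77 for Aatf. For the other members the lowest was 0.79, for Ywhag with Pdgfb.

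The genes that handle PDGF ligands rose with obstruction more often than they fell. Of 14 genes for proteases, inhibitors, binding proteins and co-receptors, 10 were called higher, 3 lower and 1 neither in vehicle over healthy kidneys, with a median log2 fold change of 1.98. Over all tested genes 36.2% were called higher and 28.6% lower, and the median was 0.09. The lists here and below were chosen with earlier results of these data known, so their counts are a description only. Sparc, whose matrix protein binds PDGF-B, averaged 605 ± 65.2 CPM in zalfermin, 909 ± 144 CPM in vehicle and 123 ± 16.8 CPM in healthy libraries. It rose in vehicle over healthy kidneys (log2 fold change 2.88, adjusted p = 1.14e-13) and fell in zalfermin over vehicle kidneys (-0.59, adjusted p = 0.00296), the 1 gene of the list that edgeR called there. DESeq2 called it alone, and voom called Sparc, Serpine2 (adjusted p = 0.0191) and the endocytic receptor gene Lrp1 (adjusted p = 0.0430) lower. Over all tested genes 0.942% were called lower there by edgeR, 2.13% by DESeq2 and 4.03% by voom. Plat encodes tissue plasminogen activator, which removes the CUB domain of PDGF-C. It averaged 215 ± 19.5 CPM in zalfermin, 214 ± 24.0 CPM in vehicle and 50.9 ± 9.31 CPM in healthy libraries (vehicle over healthy 2.07, adjusted p = 1.53e-12). The 3 genes called lower in vehicle over healthy kidneys were all for proprotein convertases. Pcsk6 averaged 10.9 ± 2.45 CPM in zalfermin, 10.1 ± 3.28 CPM in vehicle and 74.0 ± 16.7 CPM in healthy libraries (vehicle over healthy -2.87, adjusted p = 3.42e-11). Furin differed by -0.53 (adjusted p = 2.40e-04) and Pcsk5 by -0.26 (adjusted p = 0.0136) in the same comparison. In zalfermin over healthy kidneys 10 of the 14 were called higher and 2 lower, beside 37.3% and 27.0% of all tested genes.

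Genes for signalling below the receptors moved less. The list held 23 genes for adaptors, kinases, other enzymes, Ras regulators and STAT factors. Of these 12 were called higher, 1 lower and 10 neither in vehicle over healthy kidneys, with a median log2 fold change of 0.33. Of all tested genes 36.2% were called higher and 28.6% lower. Stat3, a transcription factor activated by many cytokine and growth factor receptors, averaged 251 ± 18.1 CPM in zalfermin, 243 ± 10.7 CPM in vehicle and 72.9 ± 8.13 CPM in healthy libraries (vehicle over healthy 1.73, adjusted p = 1.68e-13). The adaptor gene Shc1 averaged 75.9 ± 4.00, 81.4 ± 2.40 and 43.9 ± 1.17 CPM in the same groups (vehicle over healthy 0.89, adjusted p = 6.58e-11). The 1 called lower was Pik3cb, a catalytic subunit of PI3-kinase (-0.53, adjusted p = 1.53e-04). In zalfermin over vehicle kidneys 0 of the 23 were called by edgeR, DESeq2 or voom. These fits called 290, 602 and 1148 of the 16026 tested genes there. In edgeR 0 of the 23 had an unadjusted p under 0.05, beside 2479 of all tested genes. The smallest p of the list there was that of Shc1 (log2 fold change -0.10, adjusted p = 0.359). In zalfermin over healthy kidneys 13 were called higher and 1 lower, beside 37.3% and 27.0% of all tested genes.

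Most genes that limit receptor signalling were higher too. Of 10 genes for ubiquitin ligases, phosphatases and inhibitors, 8 were called higher and 1 lower in vehicle over healthy kidneys (median 0.76). The shares of all tested genes were 36.2% and 28.6%. The counts were likewise 8 and 1 in zalfermin over healthy kidneys, beside 37.3% and 27.0% of all tested genes. Socs3, a feedback inhibitor of cytokine receptors, averaged 78.9 ± 11.8 CPM in zalfermin, 96.9 ± 22.2 CPM in vehicle and 4.54 ± 1.61 CPM in healthy libraries (vehicle over healthy 4.42, adjusted p = 3.06e-13). Sh2b3, which encodes the adaptor Lnk, differed by 0.69 (adjusted p = 5.38e-08) and the phosphatase gene Acp1 by -0.32 (adjusted p = 0.00826). In zalfermin over vehicle kidneys 0 of the 10 were called by edgeR, beside 1.81% of all tested genes. While 2479 of the 16026 tested genes had an unadjusted p under 0.05 there, the list had 3. The smallest p was that of Socs1, with 1.83 ± 0.587 CPM in zalfermin and 2.998 ± 0.683 CPM in vehicle libraries (log2 fold change -0.71, adjusted p = 0.112). DESeq2 (adjusted p = 0.0449) and voom (adjusted p = 0.0208) called Socs1 lower, beside 2.13% and 4.03% of tested genes called lower. The call of Acp1 with obstruction was lost without healthy replicate 4 (adjusted p = 0.0679).

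The PDGF receptors belong to the class III receptor tyrosine kinases, with Kit, Csf1r and Flt3. Of 7 genes for these relatives and their ligands, 4 were called higher and 0 lower in vehicle over healthy kidneys (median 0.73). The shares of all tested genes were 36.2% and 28.6%. In zalfermin over healthy kidneys the counts were 6 and 0, beside 37.3% and 27.0% of all tested genes. Both ligands of the CSF1 receptor had the smallest p. Csf1 averaged 61.9 ± 9.69 CPM in zalfermin, 71.4 ± 11.4 CPM in vehicle and 9.04 ± 0.520 CPM in healthy libraries (vehicle over healthy 2.98, adjusted p = 1.60e-13), and Il34 differed by 2.47 (adjusted p = 9.31e-12). Kit, the stem cell factor receptor gene, averaged 30.3 ± 4.96 CPM in zalfermin and 24.1 ± 2.49 CPM in vehicle libraries, the smallest p of the list in that comparison (log2 fold change 0.33, adjusted p = 0.0819). There 0 of the 7 were called by edgeR, DESeq2 or voom, which called 290, 602 and 1148 of the 16026 tested genes. In edgeR 3 of the 7 had an unadjusted p under 0.05, beside 2479 of all tested genes.

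All 12 genes of a list known to be induced by PDGF in cultured fibroblasts were called higher in vehicle over healthy kidneys, with a median log2 fold change of 2.34, beside 36.2% of all tested genes called higher. Many other stimuli induce the same genes, and the list was chosen with earlier results of these data known. The chemokine gene Ccl2 averaged 30.6 ± 6.91 CPM in zalfermin, 24.7 ± 4.91 CPM in vehicle and 0.575 ± 0.339 CPM in healthy libraries (vehicle over healthy 5.44, adjusted p = 5.02e-13). Fosl1, an AP-1 subunit gene, averaged 5.75 ± 1.40 CPM in zalfermin and 6.17 ± 1.62 CPM in vehicle libraries and was nearly without reads in healthy ones, so no fold is given. Srf encodes the serum response factor, through which growth factors induce early genes. It averaged 24.8 ± 2.47 CPM in zalfermin, 33.2 ± 4.79 CPM in vehicle and 25.9 ± 1.89 CPM in healthy libraries. Srf was called higher in vehicle over healthy kidneys (0.36, adjusted p = 0.00611) and lower in zalfermin over vehicle kidneys (-0.42, adjusted p = 0.0154), the 1 gene of the 12 that edgeR called with zalfermin. Its adjusted p there stayed between 0.00932 and 0.0394 with each library left out. DESeq2 called Srf alone, and voom called Srf lower and the chemokine gene Cxcl1 higher (adjusted p = 0.0293), beside 3.13% of tested genes called higher. The shares called lower were 0.942% by edgeR, 2.13% by DESeq2 and 4.03% by voom. In zalfermin over healthy kidneys 11 of the 12 were called higher, beside 37.3% of all tested genes. Srf was the exception (-0.06, adjusted p = 0.620).

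**Figure D5:**
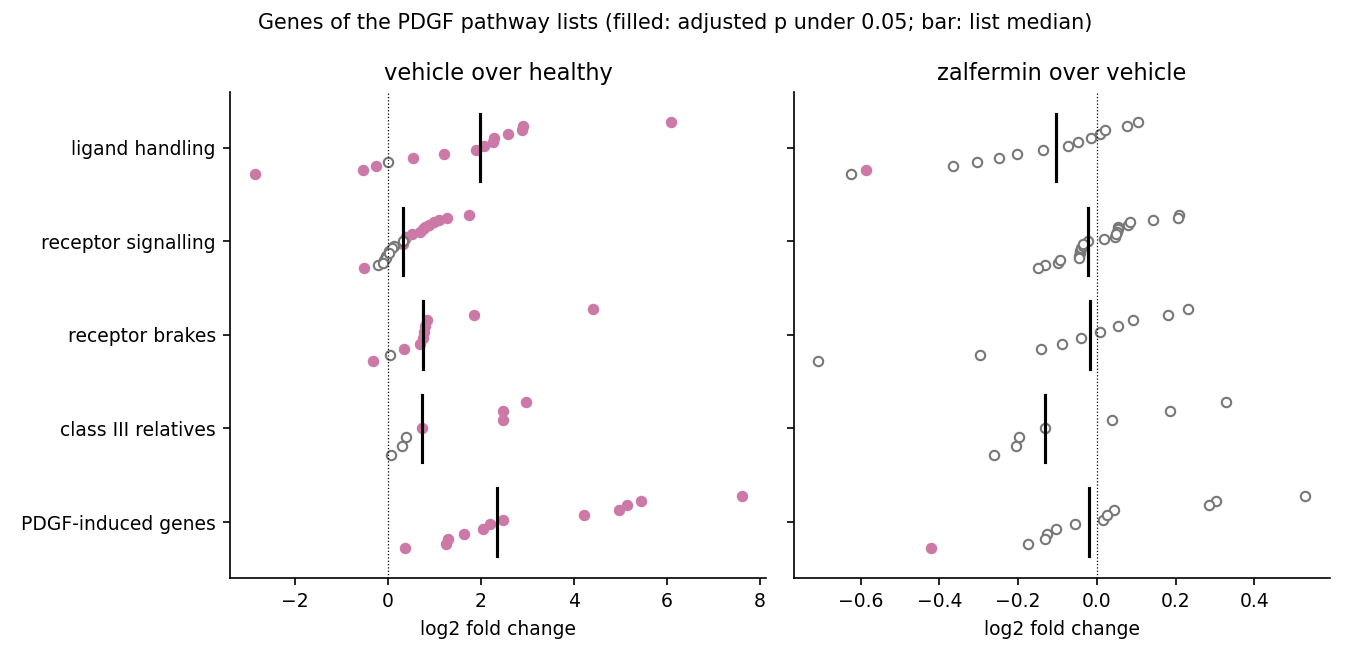
Log2 fold change (horizontal axis) of each gene in 5 PDGF pathway lists, for vehicle over healthy (left) and zalfermin over vehicle (right), on different scales; filled points have an adjusted p under 0.05 and bars are list medians. The list medians lie between 0.33 and 2.34 on the left, and Sparc (-0.59) and Srf (-0.42) are the 2 filled points on the right.

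Markers of many cell types differed between the groups, and their part in the results was not tested. Of all tested genes 36.2% were called higher and 28.6% lower in vehicle over healthy kidneys, the base for that comparison's counts here and below. In zalfermin over vehicle kidneys the shares were 0.867% and 0.942%. The summed CPM of 7 fibroblast genes (Pdgfra left out) was 1349 to 2179 in zalfermin, 2399 to 4454 in vehicle and 123 to 181 in healthy libraries. All 7 were called higher in vehicle over healthy kidneys, and 4 of 7 lower in zalfermin over vehicle kidneys. Dcn, which defined that list, averaged 86.1 ± 18.8 CPM in zalfermin, 117 ± 36.4 CPM in vehicle and 31.1 ± 7.47 CPM in healthy libraries. The summed CPM of 8 mural cell and pericyte genes was 322 to 360 in zalfermin, 291 to 413 in vehicle and 192 to 248 in healthy libraries. There 4 were called higher and 1 lower in vehicle over healthy kidneys and 0 in zalfermin over vehicle kidneys. Of 6 myofibroblast genes all were called higher in vehicle over healthy kidneys and 0 in zalfermin over vehicle kidneys, and their sum was 255 to 636 CPM in zalfermin, 389.5 to 849 CPM in vehicle and 83.6 to 115 CPM in healthy libraries. For 5 mesangial genes (Pdgfrb left out) the sum was 292 to 515 CPM in zalfermin, 322 to 517 CPM in vehicle and 478 to 1076 CPM in healthy libraries. Yet 3 were called higher and 1 lower in vehicle over healthy kidneys, with a median log2 fold change of 1.37. That sum therefore does not show the direction of most of these genes. Itga8, which defined the list, averaged 29.0 ± 7.02 CPM in zalfermin, 31.9 ± 12.6 CPM in vehicle and 12.2 ± 5.52 CPM in healthy libraries.

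Among cells known to make the ligands, 8 endothelial genes summed to 322 to 462 CPM in zalfermin, 339 to 495 CPM in vehicle and 288 to 469 CPM in healthy libraries, with 3 called higher and 1 lower in vehicle over healthy kidneys and a median log2 fold change of 0.11, close to all tested genes. The 7 macrophage genes, all called higher there, summed to 550 to 771 CPM in zalfermin, 625.04 to 846 CPM in vehicle and 125 to 154 CPM in healthy libraries. Platelets, which gave the growth factor its name, had little signal: their 6 genes summed to 10.4 to 16.8 CPM in zalfermin, 9.43 to 23.4 CPM in vehicle and 9.50 to 10.8 CPM in healthy libraries, with 1 gene at 0 in each group. Of the 3 that could be tested 2 were called higher and 1 lower in vehicle over healthy kidneys. The vehicle maximum was replicate 6, without which the highest was 13.5 CPM. Pf4, the platelet marker that defined the list, averaged 5.28 ± 0.835 CPM in zalfermin, 6.93 ± 3.46 CPM in vehicle and 0.293 ± 0.263 CPM in healthy libraries. Tubule genes differed with obstruction as well. The 6 injured tubule genes were all called higher in vehicle over healthy kidneys (median log2 fold change 6.09) and the 5 proximal tubule genes all lower (median -1.91). Mitochondrially encoded genes took 2.95% to 4.25% of counts in zalfermin, 1.10% to 4.21% in vehicle and 8.77% to 10.2% in healthy libraries. The kidney origin of the tissue was plain from Umod, the uromodulin gene of the thick ascending limb, at 3558 ± 364 CPM in zalfermin, 3461 ± 660 CPM in vehicle and 6077 ± 394 CPM in healthy libraries.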

How the data were processed

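Whole mouse kidney RNA was sequenced in 19 libraries, in groups that the labels give and the design text names. Per the labels' protocols, RNA was isolated with NucleoSpin kits and libraries were made with the NEBNext Ultra II Directional kit. The aligner was STAR 2.7.0f and the genome GRCm38, per the submitters' processing notes. The deposited values are raw read counts per gene, whole numbers with no normalization by the authors. The counting program, its strand setting and the annotation are not given in the sources read. All 55536 identifiers were found in GENCODE M21, which gave coordinates and exon lengths.

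From these counts, filterByExpr (minimum count 10, minimum total 15) left 16026 genes; the 39510 others held 0.115% of counts. TMM factors were 1.02 to 1.08 in zalfermin, 1.02 to 1.11 in vehicle and 0.751 to 0.843 in healthy libraries. edgeR 4.0.16 (R 4.3.3) fitted 1 quasi-likelihood model to the 19 libraries with two-sided tests, with Benjamini-Hochberg adjustment over the tested genes. Ratios were of counts plus 0.5, with exact permutation tests adjusted over 9. Correlations used log2 CPM (prior count 2) and 100000 permutations within groups, adjusted over 15 pairs. The edgeR, DESeq2 and voom fits were run on simulated counts with known changes. The permutation tests of ratios and correlations were not. In the simulated runs a limit on the share of false calls was set for edgeR only, not for DESeq2 or voom. Alternatives were DESeq2 1.42.0, quality-weighted voom (limma 3.58.1), upper-quartile and RLE scaling, no filter, 1 CPM in 10 libraries, a fit of the 2 groups compared, a robust fit and each library left out.

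The members and lists were chosen with earlier results of these data known. Named were all members, their 3 most alike genes and, per list, the 2 smallest p with obstruction, the smallest with zalfermin and the smallest called against the majority. Furin and Pcsk5 were named as the further genes of their list called lower with obstruction. Correlations without vehicle replicate 6 and within runs of Pdgfra were added after seeing the data. Raw reads were not used here.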

Additional observations from a re-analysis of the deposited data

Results flagged for a closer look

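Among 27 groups of values looked at (6 genes and 3 log2 ratios in 3 groups), 4 had a library far from the others, where chance gives about 1 in 20. Pdgfa had 69.7 CPM in vehicle replicate 2, above the other 6 vehicle libraries. Pdgfc had 22.7 CPM in healthy replicate 4, below the other 3 healthy libraries. Pdgfd had 24.1 CPM in vehicle replicate 6, below the other 6 vehicle libraries. The log2 ratio of Pdgfrb to Pdgfra was 0.071 in healthy replicate 1, below the other 3 healthy libraries, and the same library had the highest Pdgfra of its group (50.8 CPM). The causes were not tested.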

How the results depend on the processing

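No paired analysis was possible because the labels carry no replicate numbers and those used here are names. The 5 members called over healthy kidneys were called under all alternatives run. In zalfermin over vehicle kidneys 290 genes were called, 602 with DESeq2, 1148 with voom and 153 to 517 with a library left out. Members called there were 0, 1 with DESeq2, 2 with voom and 0 to 1 with a library left out. The log2 fold change of Pdgfrb there was -0.36 with DESeq2, -0.41 with voom and -0.39 to -0.31 with a library left out, and that of Pdgfd was -0.27 with voom. Pdgfa changed sign there, to 0.037 with voom and 0.060 without vehicle replicate 2. Pdgfc in zalfermin over healthy kidneys changed sign with RLE scaling (-0.032), DESeq2 (-0.033), only those 2 groups (-0.0029), without vehicle replicate 6 (-0.0041) and without healthy replicate 4 (-0.0022), with a range of -0.0041 to 0.088 over libraries left out. With a library left out, the log2 ratio difference of Pdgfb to Pdgfa (zalfermin over vehicle) was -0.31 to -0.20, that of Pdgfd to Pdgfc (zalfermin over healthy) 0.49 to 0.70 and that of Pdgfrb to Pdgfra (zalfermin over healthy) -0.41 to -0.16. The vehicle over healthy difference of Pdgfrb to Pdgfra (-0.05) was -0.23 to 0.02, positive without healthy replicate 3 (0.0149) or 4 (0.0194).

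Divided by the longest transcript, levels per kb in zalfermin, vehicle and healthy libraries were 22.4, 23.3 and 10.5 for Pdgfa, 43.2, 52.7 and 9.71 for Pdgfb, 7.77, 6.66 and 7.45 for Pdgfc, and 18.4, 21.02 and 4.49 for Pdgfra.

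The 2 libraries farthest from the median of the first gene named in a pair were left out. Over the remaining obstructed libraries r changed sign for Pdgfc with Pdgfd (-0.66), Pdgfra (-0.40) and Pdgfrb (-0.39). It was 0.52 for Pdgfd with Pdgfra, no longer past the threshold. Without vehicle replicate 6 it changed sign for Pdgfd with Pdgfa (-0.17), Pdgfb (0.025) and Pdgfc (-0.049) and for Pdgfc with Pdgfrb (-0.10), and was 0.56 for Pdgfd with Pdgfra. Within the runs of Pdgfra it was -0.33 and 0.11 for Pdgfrb and 0.81 and 0.53 for Pdgfd. The causes were not tested.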

Other observations

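Pdgfrl encodes a receptor-like protein that resembles the ligand-binding part of the PDGF receptors and has no kinase. It is not a member of the set and was chosen after its values were seen. It had 406 reads in all 8 zalfermin libraries, 558 in all 7 vehicle libraries and 7 in all 4 healthy libraries. Its level was 2.40 to 4.86 CPM in zalfermin, 3.64 to 8.20 CPM in vehicle and 0 to 0.422 CPM in healthy libraries. All obstructed libraries lay above all healthy ones, and 8 of 8 zalfermin libraries lay below the vehicle median. Since the gene was picked for these values and had few reads in healthy libraries, no fold and no test are given.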
